A study of Mus musculus with 47 samples.

Results

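The brown adipocyte markers *Ucp1*, *Cidea*, *Elovl3*, *Otop1* and *Kcnk3* were followed across 47 RNA-seq libraries of mouse gastrocnemius, a mostly fast-twitch calf muscle. They were taken by gene symbol from the deposited count table, which held 20796 genes, and all 5 were among the 17159 genes tested. The genes were chosen by their measured levels in these libraries, which earlier results had shown to vary together within groups, to be ordered by strain, and to be lower on the fat diet. Their strain and diet differences and their co-variation are therefore given as descriptions with no test. Sex did not enter the choice, and was tested.

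All mice were wild type and carried no treatment other than diet. The strains were C57BL/6J, a common laboratory strain, CAST/EiJ, a wild-derived strain, and NZO/HlLtJ, an obese strain. Females and males of each received either the control diet, 10% fat + fiber, or the high fat, high sugar diet, 44% fat + fiber, from 6 weeks of age, and muscle was collected at 15 weeks. Each of the 12 groups held 4 libraries of poly(A) RNA, except CAST/EiJ males on 10% fat with 3. Replicate numbers name libraries and carry no pairing. Whether each library of a group stands for another mouse is not stated in the labels, and p-values therefore measure only the spread between these samples.

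Brown adipocytes burn fat to make heat. UCP1 in their mitochondrial inner membrane lets protons return to the matrix without making ATP, and noradrenaline acting through beta-adrenergic receptors and cAMP raises both lipolysis and *Ucp1* transcription. White adipocytes share the fat-storage genes, such as *Adipoq*, *Plin1* and *Fabp4*, but have little UCP1. Skeletal muscle fibres do not normally make UCP1; they express the relative *Ucp3*. RNA of whole muscle also holds RNA of the fat, nerve, vessels and blood cells within and around it.

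Of the 5 genes, *Ucp1* (ENSMUSG00000031710, chr8:83290348-83298456) encodes the uncoupling protein itself. *Cidea* (ENSMUSG00000024526, chr18:67343564-67367794) encodes a lipid droplet protein. *Elovl3* (ENSMUSG00000038754, chr19:46131897-46135307) encodes an elongase of very long chain fatty acids. *Otop1* (ENSMUSG00000051596, chr5:38275972-38304217) encodes a proton channel, and *Kcnk3* (ENSMUSG00000049265, chr5:30588170-30625271) a two-pore potassium channel.

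All 5 genes lie on the + strand of GRCm38, by the deposited gene table. In the GENCODE M21 gene models, *Kcnk3* shares 229 exon bases with the antisense gene Gm9899 and *Elovl3* shares 10 with Pitx3. The sources used here do not state whether counting used strand.

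The stretch of DNA just before the *Ucp1* start is shown because cAMP-responsive and nuclear receptor factors are known to act on this gene. The sequence is the 250 bases upstream of the RefSeq start, chr8:83290098-83290347 of GRCm38.p6, + strand, 64.8% G or C. The capitals mark the letters TGACG, the core of a cAMP response element, 147 bases before the start, and AGGTCA, a nuclear receptor binding motif, 14 bases before it.
Ucp1 promoter: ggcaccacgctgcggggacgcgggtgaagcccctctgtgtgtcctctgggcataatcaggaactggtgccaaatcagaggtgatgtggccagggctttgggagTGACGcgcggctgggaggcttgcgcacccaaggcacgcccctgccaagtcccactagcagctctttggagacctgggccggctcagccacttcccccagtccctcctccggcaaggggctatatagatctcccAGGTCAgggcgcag

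The 4 motifs searched, on both strands, were those marked above, the CCAAT box and the TATA box in the form TATAAA. Of 32851 RefSeq promoters of the same length, 17.8% held the cAMP response core, 14.0% the nuclear receptor motif, 33.8% the CCAAT box and 12.4% the TATA box. The *Otop1* window, 70.0% G or C, held none of the 4, but it lies inside the deposited span of the gene and may not be its main promoter. Only these 2 of the 5 genes matched the promoter table. A match describes letters and is not a measured binding site.

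Levels are given as CPM, the expected counts per M (mega) of the scaled library total. Library totals ran from 26.04 M to 84.79 M expected counts, with a median of 40.79 M. The summed level of 12 skeletal muscle markers lay between 168048 and 236490 CPM in every library, so the labelled tissue was present throughout. No 2 libraries of a group were copies of each other, since their counts differed by 13.02 to 138.4 times the sampling variance over 69 pairs.

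**Figure D1:**
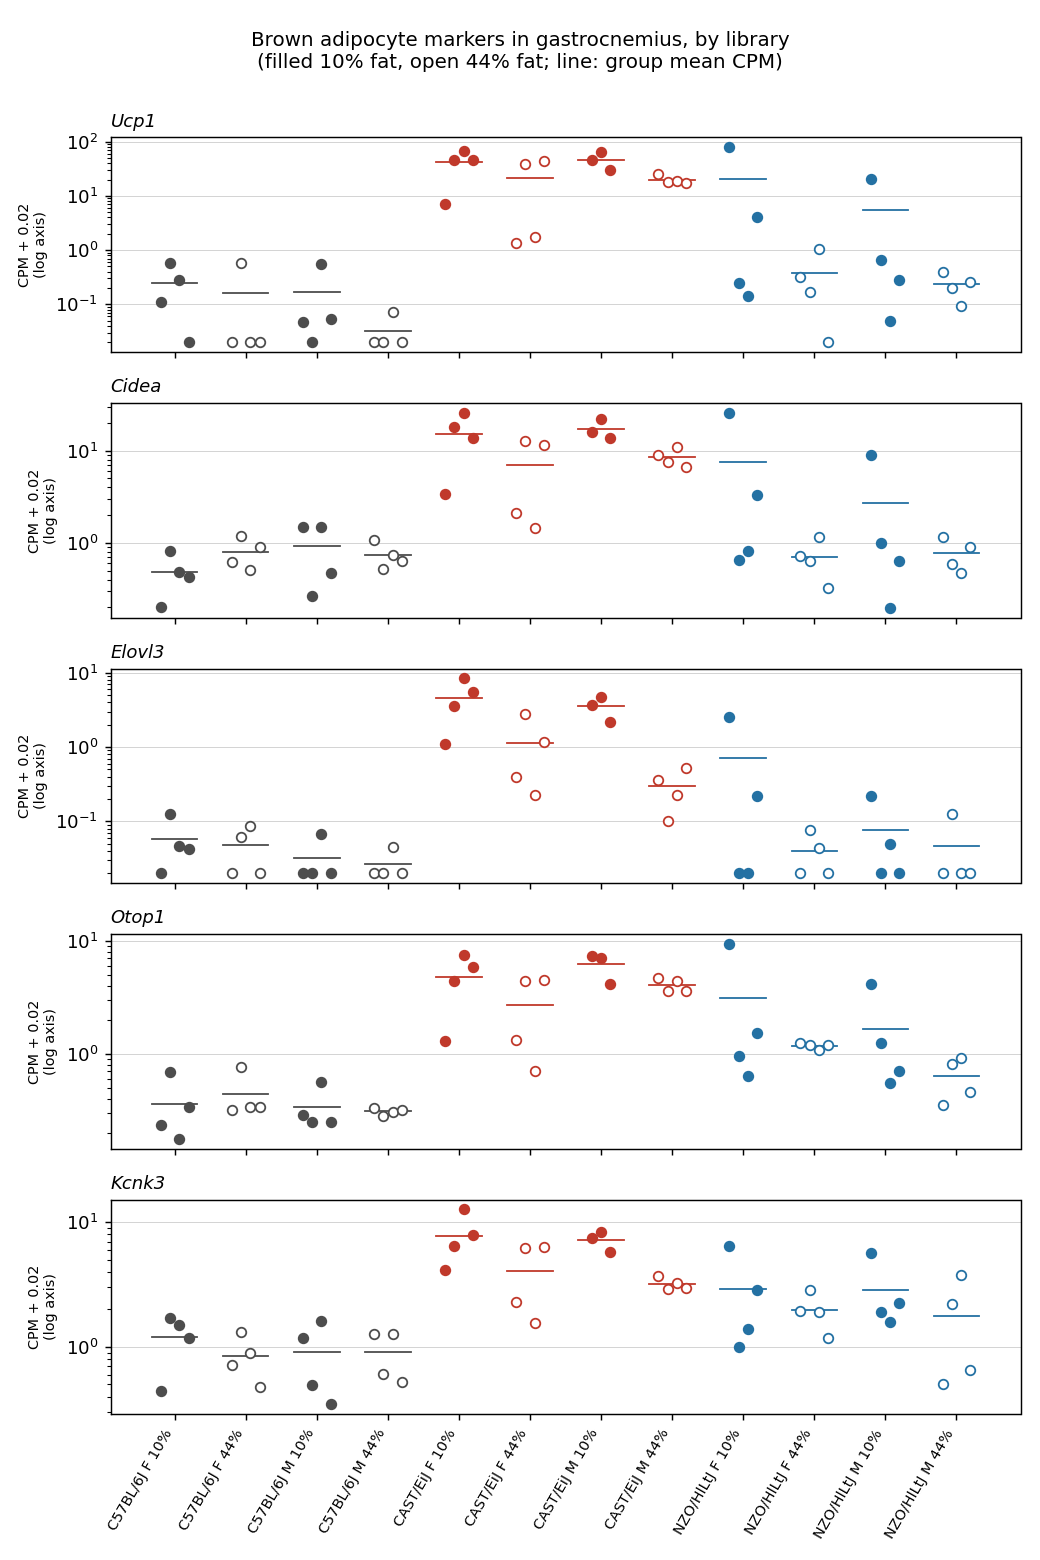
Level of each gene in each of the 47 libraries, with 0.02 added to CPM so that values of 0 can be drawn on a log axis. Filled points are 10% fat and open points 44% fat, and lines are group mean CPM. CAST/EiJ groups on 10% fat have the highest means of all 5 genes, and a single NZO/HlLtJ female library on 10% fat stands at 79 CPM of Ucp1.

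*Ucp1* was abundant in CAST/EiJ and nearly absent from C57BL/6J. CAST/EiJ females on 10% fat had 7.1, 46.5, 66.7 and 45.4 CPM, and males 46.5, 64.1 and 29.8 CPM. On 44% fat the females had 1.35, 39.2, 1.72 and 43.6 CPM and the males 24.9, 18, 18.7 and 17.6 CPM. The females on 44% fat were thus divided, with the first and the third library below every other CAST/EiJ library, and the other two within the range of the control diet, whereas the 4 males lay close together. In C57BL/6J the level ran from 0 to 0.558 CPM on 10% fat, with 5 of 8 libraries at or under 3 counts, and from 0 to 0.571 CPM on 44% fat, with 7 of 8 at or under 3 counts.

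In NZO/HlLtJ *Ucp1* depended on the library. Females on 10% fat had 79, 0.233, 0.122 and 4.03 CPM, and males 20.8, 0.646, 0.0297 and 0.266 CPM. One female library exceeded all CAST/EiJ libraries, while the median of the 8 was 0.456 CPM. On 44% fat none of 8 libraries passed 1.01 CPM and the median was 0.209 CPM.

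*Cidea* was likewise highest in CAST/EiJ. CAST/EiJ libraries on 10% fat had 3.39, 17.9, 25.7 and 13.8 CPM in females and 15.7, 22.1 and 13.7 CPM in males. On 44% fat they had 2.09, 12.6, 1.43 and 11.5 CPM in females and 8.96, 7.48, 10.9 and 6.54 CPM in males. NZO/HlLtJ females on 10% fat had 25.4, 0.628, 0.795 and 3.29 CPM, and males 8.95, 0.984, 0.178 and 0.621 CPM, so the libraries high in *Ucp1* were high in *Cidea*. Unlike *Ucp1*, *Cidea* was above 3 counts in every C57BL/6J library, between 0.182 and 1.47 CPM. On 44% fat NZO/HlLtJ did not stand above C57BL/6J, with 0.697, 0.609, 1.15 and 0.304 CPM in females and 1.15, 0.576, 0.448 and 0.874 CPM in males, and a mean of 0.726 CPM beside 0.752 CPM.

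*Elovl3* was the scarcest of the 5 per unit of length in CAST/EiJ, with a median of 0.585 CPM per kb of exon over the 15 libraries. The medians there were 18.2 for *Ucp1*, 10.3 for *Cidea*, 1.44 for *Kcnk3* and 1.27 CPM per kb for *Otop1*. CAST/EiJ females on 10% fat had 1.07, 3.54, 8.39 and 5.4 CPM of *Elovl3* and males 3.71, 4.69 and 2.12 CPM. On 44% fat the females had 0.369, 2.74, 0.209 and 1.16 CPM and the males 0.337, 0.0796, 0.208 and 0.498 CPM. All 4 males on 44% fat lay below every CAST/EiJ library on 10% fat. In C57BL/6J no library passed 0.106 CPM, and 7 of 8 on 10% fat were at or under 3 counts. In NZO/HlLtJ on 10% fat the 2 highest were 2.55 and 0.202 CPM, the first being the female library with the most *Ucp1*.

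Both channel genes were above 3 counts in every library. *Otop1* in CAST/EiJ on 10% fat was 1.27, 4.37, 7.44 and 5.83 CPM in females and 7.3, 7.05 and 4.13 CPM in males. On 44% fat it was 1.29, 4.36, 0.678 and 4.45 CPM in females and 4.67, 3.55, 4.39 and 3.56 CPM in males. C57BL/6J libraries ran from 0.156 to 0.74 CPM, on both diets. NZO/HlLtJ females on 44% fat had 1.22, 1.17, 1.06 and 1.17 CPM and males 0.334, 0.786, 0.897 and 0.437 CPM. These were the only neighbouring groups, in the order of the levels of any of the 5 genes, whose ranges did not overlap.

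*Kcnk3* in CAST/EiJ on 10% fat was 4.16, 6.38, 12.7 and 7.82 CPM in females and 7.52, 8.4 and 5.71 CPM in males. On 44% fat it was 2.27, 6.16, 1.54 and 6.28 CPM in females and 3.66, 2.92, 3.21 and 2.94 CPM in males. In C57BL/6J it ran from 0.326 to 1.7 CPM. On 44% fat, where NZO/HlLtJ *Ucp1* was scarce, the NZO/HlLtJ medians of *Kcnk3* and *Otop1*, 1.9 and 0.978 CPM, still stood above those of C57BL/6J, 0.784 and 0.304 CPM, with ranges that overlapped for both.

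Across strains on 10% fat, every CAST/EiJ library exceeded every C57BL/6J library for all 5 genes. Log2 differences here are of log2 CPM with a prior count of 2, averaged over the sexes. They were 8.0 for *Ucp1*, 4.59 for *Cidea*, 5.71 for *Elovl3*, 3.83 for *Otop1* and 2.94 for *Kcnk3*, where those of *Ucp1* and *Elovl3* depend on the prior count. Between the averages of the female and male mean CPM, the ratio was 23.6 for *Cidea*, 16.7 for *Otop1* and 7.18 for *Kcnk3*. No ratio is given for *Ucp1* and *Elovl3*, because most C57BL/6J libraries were at or under 3 counts. Since strains differ widely (edgeR's quasi-likelihood test called 49.7% of all genes between CAST/EiJ and C57BL/6J, 24.0% higher), and the genes were chosen for this order, the count of 5 is a description.

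NZO/HlLtJ stood between the other strains on average and overlapped both. Against C57BL/6J on 10% fat, the log2 differences were 3.07, 1.51, 0.92, 2.09 and 1.36 for *Ucp1*, *Cidea*, *Elovl3*, *Otop1* and *Kcnk3*, and the ranges overlapped for 5 of 5, where the test called 25.8% of all genes. Without the first NZO/HlLtJ female library on 10% fat they were 2.19, 0.96, 0.30, 1.69 and 1.10. Against NZO/HlLtJ, CAST/EiJ was higher by 4.93, 3.08, 4.79, 1.74 and 1.58, again with overlapping ranges for all 5, where 50% of all genes were called. These 3 comparisons share their control-diet libraries with each other and with the diet comparisons.

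The 5 genes differed more between strains than the mean of general adipocyte genes. The summed level of 12 markers of brown and white adipocytes had medians of 1859 CPM in CAST/EiJ, 1252 CPM in NZO/HlLtJ and 1066 CPM in C57BL/6J on 10% fat, with overlapping ranges. Set against the mean log2 level of those 12 genes, which was itself 0.85 higher in CAST/EiJ than in C57BL/6J, the 5 genes remained 7.15, 3.74, 4.86, 2.99 and 2.09 higher. In bulk RNA, fewer cells of a type and less RNA per cell cannot be told apart.

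**Figure D2:**
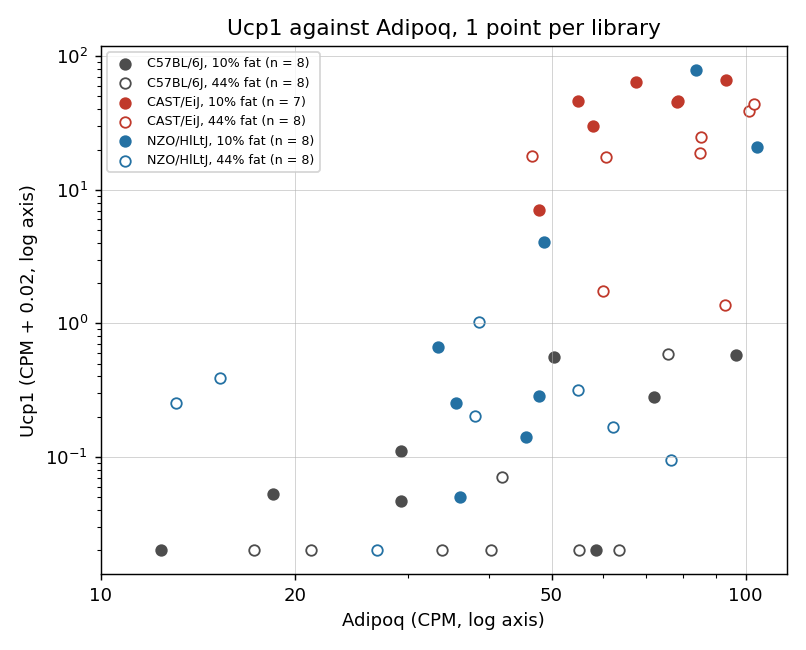
Ucp1 against Adipoq in each library, both as CPM on log axes with 0.02 added to Ucp1. Colours are strains, filled points 10% fat and open points 44% fat. CAST/EiJ and C57BL/6J libraries of similar Adipoq differ widely in Ucp1, and 2 CAST/EiJ libraries on 44% fat combine low Ucp1 (1.35 and 1.72 CPM) with Adipoq of 92.8 and 60.1 CPM.

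*Adipoq*, which encodes the hormone adiponectin of all adipocytes, was set beside *Ucp1* library by library. In NZO/HlLtJ on 10% fat the female library with 79 CPM of *Ucp1* had 83.6 CPM of *Adipoq*, and the other females had 35.6, 45.7 and 48.6 CPM. Among the males the library with 20.8 CPM of *Ucp1* had 104 CPM of *Adipoq*, and the others 33.3, 36.1 and 47.8 CPM. In CAST/EiJ females on 44% fat, by contrast, *Adipoq* was 92.8, 101, 60.1 and 103 CPM beside *Ucp1* of 1.35, 39.2, 1.72 and 43.6 CPM. The first of these libraries was rich in *Adipoq* and poor in *Ucp1*. On 10% fat the first CAST/EiJ female library was the lowest of its group in both, at 47.8 CPM of *Adipoq* and 7.1 CPM of *Ucp1*.

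On 44% fat the 5 genes were lower on average in CAST/EiJ. Mean levels on 10% and 44% fat were 43.7 ± 20.4 (SD, n = 7) and 20.7 ± 15.3 CPM (SD, n = 8) for *Ucp1*, a log2 difference of -1.58 against a within-group SD of 1.64. *Cidea* was 16.1 ± 7.13 and 7.69 ± 4.18 CPM, a log2 difference of -1.20 (within-group SD 1.09). *Elovl3* was 4.13 ± 2.38 and 0.699 ± 0.887 CPM, a log2 difference of -2.90 (within-group SD 1.16). *Otop1* was 5.34 ± 2.25 and 3.37 ± 1.54 CPM, with a log2 difference of -0.75 (0.92), and *Kcnk3* 7.52 ± 2.69 and 3.62 ± 1.72 CPM, with -1.11 (0.65). The difference of *Ucp1* and of *Otop1* was smaller than the spread within groups, and that of *Elovl3* was the largest both in size and against its spread.

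In CAST/EiJ males the 2 diets did not overlap for 4 of 5 genes, with log2 differences of -1.18 for *Ucp1*, -1.01 for *Cidea*, -3.55 for *Elovl3* and -1.16 for *Kcnk3*, and overlapped for *Otop1* (-0.57). In females they overlapped for all 5, with -1.97, -1.39, -2.25 and -1.06 for the same 4 genes and -0.93 for *Otop1*. With 3 against 4 libraries ranges can part by chance, and the share of all genes whose ranges parted was not computed. By edgeR's test, a different measure that averages the sexes, 0.134% of all genes were called between these diets in CAST/EiJ, 0.128% lower. Sample identifiers fall into 3 runs of numbers, whose meaning the labels do not give. Within runs 1, 2 and 3 the difference was -1.62, -2.14 and -0.55 for *Ucp1* and -2.36, -3.40 and -2.24 for *Elovl3*, and it was below 0 in all 3 runs for the other 3 genes as well.

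General adipocyte genes gave no call between the diets in CAST/EiJ. Their sum had a median of 1859 CPM on 10% fat and 2085 CPM on 44% fat. By edgeR 0 of the 12 genes were called, where 0.134% of all genes were. The count of 0 is near that share and does not show that these genes were unchanged. Relative to those 12 genes, whose mean log2 level differed by 0.01, the diet differences were -1.59, -1.22, -2.92, -0.76 and -1.12 for *Ucp1*, *Cidea*, *Elovl3*, *Otop1* and *Kcnk3*. Lymphocyte markers varied from library to library, with a sum of 0.468 to 64.8 CPM on 10% fat and 0.261 to 78.9 CPM on 44% fat in CAST/EiJ. The B cell gene *Cd79a* was 0, 10.8, 6.56 and 11 CPM in CAST/EiJ females on 10% fat and 4.15, 6.69, 0.0522 and 14.9 CPM on 44% fat. On 10% fat it was lowest in the library lowest in *Ucp1*. On 44% fat it was lowest in the third library (*Ucp1* 1.72 CPM), whereas *Ucp1* was lowest in the first (1.35 CPM). In CAST/EiJ males on 44% fat *Cd79a* was 4.83, 0, 7.28 and 10.2 CPM, beside *Ucp1* of 24.9, 18, 18.7 and 17.6 CPM. The part of lymphoid cells in the differences was not tested.

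**Figure D3:**
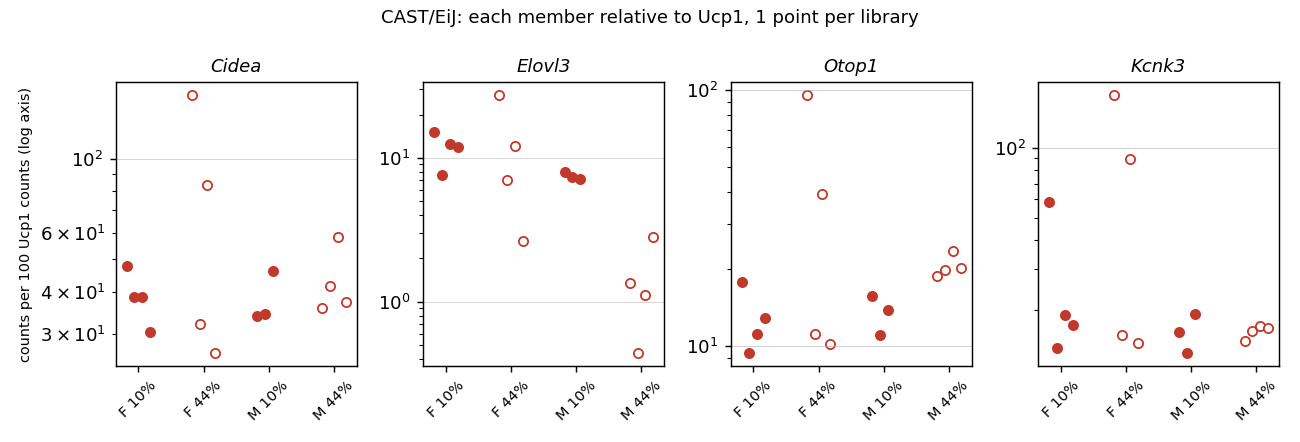
Counts of Cidea, Elovl3, Otop1 and Kcnk3 per 100 counts of Ucp1 in the 15 CAST/EiJ libraries, on log axes, by sex (F, M) and diet, with filled points for 10% fat. In males, Elovl3 per 100 Ucp1 counts lies at 7.13 to 7.99 on 10% fat and at 0.442 to 2.83 on 44% fat.

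In CAST/EiJ males, but not females, the proportions of *Elovl3* and *Otop1* to *Ucp1* did not overlap between diets. For each 100 counts of *Ucp1*, *Elovl3* had 7.99, 7.32 and 7.13 counts on 10% fat and 1.35, 0.442, 1.11 and 2.83 on 44% fat. *Otop1* had 11 to 15.7 counts on 10% fat and 18.7 to 23.4 on 44% fat. *Cidea* and *Kcnk3* kept overlapping ranges of 33.8 to 46.2 against 35.9 to 58.3, and of 13.1 to 19.2 against 14.7 to 17.1. In females on 44% fat, the ratios were high where *Ucp1* was low, with 155 and 83.3 counts of *Cidea* and 168 and 89.4 counts of *Kcnk3* per 100 of *Ucp1* in the first and the third library. The female ranges overlapped between diets for *Elovl3*, at 7.62 to 15.1 on 10% fat and 2.65 to 27.3 on 44% fat, and for *Otop1*, at 9.4 to 17.8 and 10.2 to 95.5. These ratios are not scaled by gene length, and each rises where its divisor, *Ucp1*, is low. How often ratios of other genes to *Ucp1* part between these few libraries was not computed. The genes were chosen for their fall on the fat diet, so the ratios are a description.

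In NZO/HlLtJ the mean levels on 10% and 44% fat were 13.1 and 0.29 CPM for *Ucp1*, 5.1 and 0.726 CPM for *Cidea*, 2.37 and 0.884 CPM for *Otop1* and 2.87 and 1.86 CPM for *Kcnk3*. The diet ranges overlapped for all 5 genes, and 0.408% of all genes were called. The log2 differences were -2.35, -1.24, -0.98, -0.77 and -0.59 for *Ucp1*, *Cidea*, *Elovl3*, *Otop1* and *Kcnk3*. Without the first NZO/HlLtJ female library on 10% fat they were -1.47, -0.69, -0.36, -0.36 and -0.34. Within run 1 of the sample identifiers, with 4 libraries per diet, the differences were -3.89, -2.19, -1.33, -1.66 and -0.86. That run held the libraries with 79 and 20.8 CPM of *Ucp1*. Within each NZO/HlLtJ sex, run 2 and run 3 each held a single diet, so run and diet cannot be told apart there. The 12 adipocyte genes were 0.43 lower on 44% fat (log2 difference -0.43), and relative to them the 5 genes differed by -1.92, -0.81, -0.54, -0.33 and -0.16.

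In C57BL/6J the diets overlapped for all 5 genes. The log2 differences between diets were -1.01 for *Ucp1*, 0.37 for *Cidea*, -0.13 for *Elovl3*, 0.15 for *Otop1* and -0.14 for *Kcnk3*, and 0% of genes were called (0 of 17159 by edgeR, with 681 at an unadjusted p under 0.05 and 9 called by DESeq2). Whether the diet difference of the 5 genes differed between strains was not tested, because the choice of genes used both.

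Sex made no called difference to the 5 genes in any strain. By edgeR's quasi-likelihood test with Benjamini-Hochberg adjustment over all genes, 0 of 5 were called in C57BL/6J, in CAST/EiJ and in NZO/HlLtJ, where 15.2%, 4.27% and 11.8% of all genes were called. *Ucp1* and *Elovl3* in C57BL/6J were at or under 3 counts in 12 and 15 of 16 libraries, and *Elovl3* in NZO/HlLtJ in 11 of 16. At such counts a sex difference could hardly be called, so 0 of 5 says little about these genes there. In CAST/EiJ the log2 fold change of females against males was 0.09 ± 0.81 (SE) for *Ucp1* (adjusted p = 0.991), -0.17 ± 0.59 for *Cidea* (adjusted p = 0.956) and 1.22 ± 0.67 for *Elovl3* (adjusted p = 0.389). It was -0.45 ± 0.45 for *Otop1* (adjusted p = 0.724) and 0.25 ± 0.41 for *Kcnk3* (adjusted p = 0.861). These standard errors are wide, and a p over the threshold does not show that the sexes are alike.

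In NZO/HlLtJ the estimates lay above 0 for all 5 genes, at 1.27 ± 1.29 (SE, adjusted p = 0.58) for *Ucp1*, 0.66 ± 0.65 (adjusted p = 0.565) for *Cidea* and 0.86 ± 0.46 (adjusted p = 0.24) for *Otop1*. *Elovl3* was at 1.53 ± 1.16 and *Kcnk3* at 0.07 ± 0.40. The sign rested on single libraries for all but *Otop1*: without the first female library on 10% fat the estimates were -0.70 for *Ucp1*, -0.46 for *Cidea*, -0.02 for *Elovl3* and -0.31 for *Kcnk3*. Without the first NZO/HlLtJ male library on 10% fat, the one high in *Ucp1*, *Otop1* was called higher in females, at 1.37 with an adjusted p of 0.049. Without that female library its fold change was 0.09. The test of whether the diet effect differed between the sexes called 0 of 17159 genes by edgeR in each strain, with 913, 689 and 1108 at an unadjusted p under 0.05 in C57BL/6J, CAST/EiJ and NZO/HlLtJ. Among the 5 genes its smallest adjusted p was 0.871, for *Elovl3* in NZO/HlLtJ. Outside identifier run 1, NZO/HlLtJ females on 10% fat and males on 44% fat lay in run 2, and the other NZO/HlLtJ groups in run 3. There the sex by diet contrast cannot be told apart from the run.

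**Figure D4:**
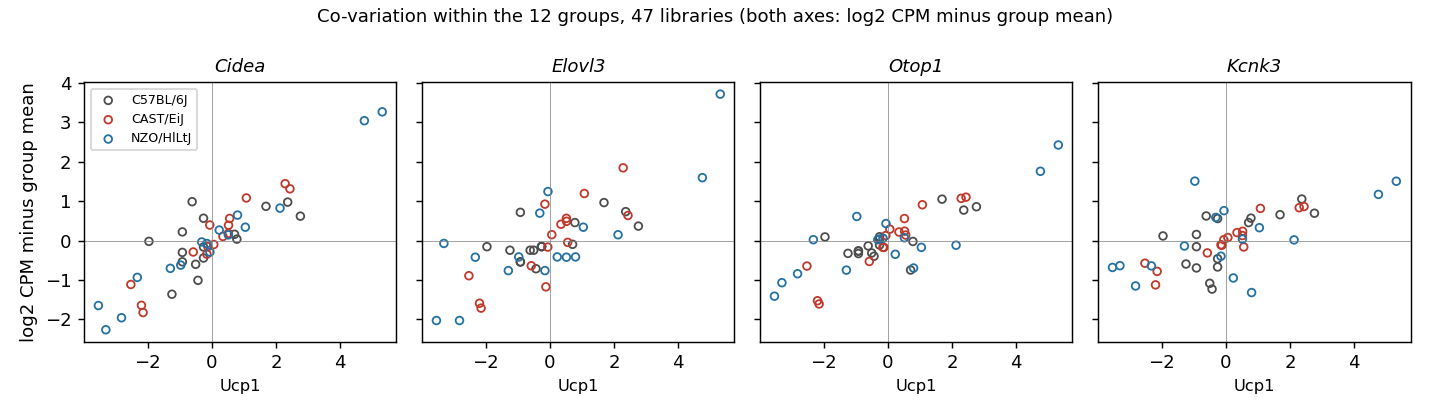
Cidea, Elovl3, Otop1 and Kcnk3 against Ucp1 in 47 libraries, both axes as log2 CPM minus the mean of the library's group, coloured by strain. Points rise from lower left to upper right in every panel, most tightly for Cidea (r = 0.92).

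Within groups the 5 genes varied together. After each library's group mean was subtracted from log2 CPM, Pearson's r over 47 libraries with *Ucp1* was 0.92 for *Cidea*, 0.83 for *Otop1*, 0.78 for *Elovl3* and 0.65 for *Kcnk3*. The correlation of *Ucp1* with *Cidea* was 0.96 within the 15 CAST/EiJ libraries, 0.98 within the 16 of NZO/HlLtJ and 0.58 within the 16 of C57BL/6J, where few counts stood behind *Ucp1*. For *Kcnk3* with *Ucp1* it was 0.94 in CAST/EiJ and 0.59 in NZO/HlLtJ, a difference that was not tested. The points share library, depth and dissected tissue, the genes were chosen for this co-variation, and no p is given.

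The mean of the 5 genes followed some gene lists and not others in the same libraries. The group-centred correlation was 0.88 with the mean of other brown adipocyte genes, 0.77 with adrenergic and cAMP genes, 0.72 with the 12 adipocyte genes and 0.67 with genes that lean to white fat. Of the 19 other brown adipocyte genes taken singly, 10 had r over 0.5, with a range from -0.27 to 0.79. Of the 12 adipocyte genes 11 did, with a range from 0.32 to 0.80. Of the 7 genes that lean to white fat 5 did, with a range from -0.54 to 0.71. Among all genes 3.64% had r over 0.5. Since r of this size was also common in the adipocyte and white-leaning lists, it was not particular to the brown adipocyte list. The correlation was 0.26 with genes described in beige adipocytes and -0.24 with oxidative genes that brown fat and muscle share. With muscle markers it was -0.69, with red blood cell markers -0.07 and with lymphocyte markers 0.40. The last was 0.74 within CAST/EiJ and 0.09 within NZO/HlLtJ.

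By group-centred Pearson's r over 47 libraries, the 12 protein-coding genes whose pattern was most like the mean of the 5 were *4931406C07Rik* (0.88), *Letmd1* (0.85), *Pfkl* (0.85), *Rmdn3* (0.85), *Pank3* (0.84), *1700037H04Rik* (0.84), *Hsd17b12* (0.83), *Pygl* (0.83), *Slc24a3* (0.83), *Tkt* (0.82), *Slc25a35* (0.82) and *Acaca* (0.81). *Pfkl* encodes the liver phosphofructokinase of glycolysis, *Pygl* the liver glycogen phosphorylase, *Tkt* transketolase of the pentose phosphate pathway and *Acaca* the acetyl-CoA carboxylase that begins fatty acid synthesis. The list depends on how likeness is measured, since 4 of the 12 were shared with a list by Spearman's rho, 2 with one from CAST/EiJ alone and 5 with one from NZO/HlLtJ alone.

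Group means did not enter that ranking, but the 12 were picked in these same libraries. They were picked for likeness to genes chosen in part by strain order and a lower level on the fat diet. The calls below therefore describe the 12 and are not independent support. By edgeR's test 12 of the 12 were higher in CAST/EiJ than in C57BL/6J on 10% fat, with a median log2 fold change of 1.36, beside 24.0% of all genes. Between diets 0 of the 12 were called in NZO/HlLtJ, beside 0.408% of all genes, and 0 in C57BL/6J, beside 0%. On 44% fat 3 of the 12 fell in CAST/EiJ, beside 0.128% of all genes. *Acaca* went from 323 to 84 CPM (log2 fold change -2.01 ± 0.35 SE, adjusted p = 0.00288), *Tkt* from 176 to 41.8 CPM (-2.10 ± 0.37, adjusted p = 0.0033) and *Pygl* from 29.7 to 7.14 CPM (-2.06 ± 0.38, adjusted p = 0.00601). *Pygl* missed the threshold, at an adjusted p of 0.0524, without the second CAST/EiJ male library on 10% fat.

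**Figure D5:**
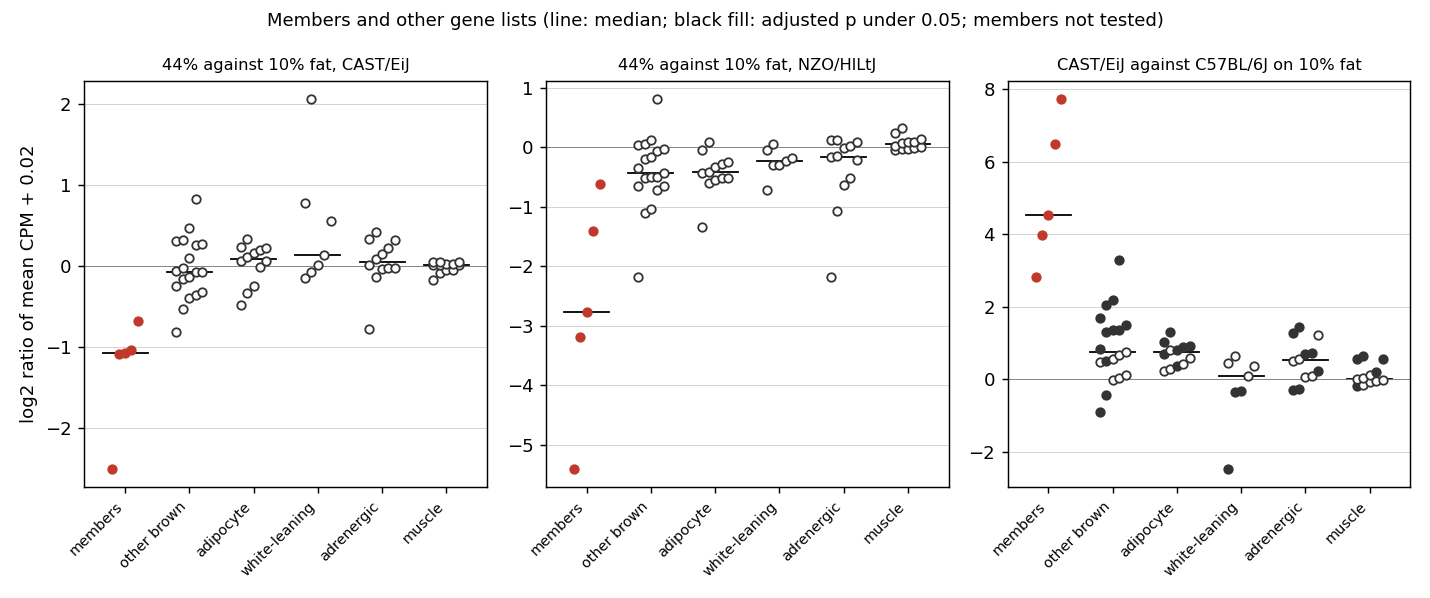
Log2 ratio of mean CPM + 0.02 for the 5 genes (red) and for genes of 5 other lists in 3 comparisons, with lines at list medians and black fill for genes with an adjusted p under 0.05. The 5 genes were not tested, and the ratios of Ucp1 and Elovl3 against groups near 0 depend on the added 0.02. In CAST/EiJ on 44% fat, 0 of 19 other brown adipocyte genes and 0 of 12 adipocyte genes are filled, beside 0.134% of all genes.

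Of 22 other genes known from brown adipocytes, 20 were in the table and 19 were tested. In CAST/EiJ, 0 of the 19 were called between diets, with a median log2 fold change of -0.05 beside 0.000 for all genes. The share called among all genes was 0.134%, so a count of 0 is near that share. *Dio2*, the deiodinase that activates thyroid hormone in brown fat, was 4.73 CPM on 10% fat and 4.3 CPM on 44% fat (adjusted p = 1, edgeR). *Gk*, glycerol kinase, was 5.92 and 5.3 CPM (adjusted p = 1). *Acot11*, a thioesterase induced by cold in brown fat, came nearest, at 25.7 and 14.5 CPM (log2 fold change -0.80 ± 0.19 SE, adjusted p = 0.0837). Its adjusted p was 0.019 by DESeq2 and 0.0465 without the identifier run in the model.

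Upstream of *Ucp1*, 0 of 12 adrenergic and cAMP genes and 0 of 18 regulators of *Ucp1* were called between diets in CAST/EiJ. Each list had a median of 0.05. Between these diets 0.134% of all genes were called, so counts of 0 are near that share. They do not show that these lists were unchanged. *Adrb3*, the beta receptor of adipocytes, was 7.2 CPM on 10% fat and 8.99 CPM on 44% fat (adjusted p = 1), and *Pparg*, the master regulator of adipocytes, 9.78 and 6.99 CPM (adjusted p = 1). Among 7 genes higher in white than in brown fat 0 were called, and *Nnat* had the smallest adjusted p, 0.0587, at 1.67 CPM on 10% fat and 6.98 CPM on 44% fat.

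Relatives of the 5 genes gave a single call between diets in CAST/EiJ, where 0.134% of all genes were called. *Elovl6*, an elongase of the fatty acid synthesis pathway, was 27.6 CPM on 10% fat and fell to 3.12 CPM on 44% fat (log2 fold change -3.18 ± 0.51 SE, edgeR adjusted p = 0.00068), and the other 4 tested elongases were not called, among them *Elovl5* at 20.2 and 15 CPM (adjusted p = 0.23). None of 5 uncoupling protein relatives was called. *Ucp3*, the form of skeletal muscle, was 117 and 127 CPM and *Ucp2* 30.1 and 32.9 CPM (adjusted p = 1 for each). Per kb of exon, the CAST/EiJ median of *Ucp3* was 37.8 CPM, about that of C57BL/6J at 38.7 CPM, beside 18.2 CPM for *Ucp1*. For *Cidec*, a relative of *Cidea* listed here among the markers of both brown and white adipocytes, it was 43.7 CPM per kb beside 10.3 for *Cidea*.

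On 10% fat 12 of the 19 other brown adipocyte genes were called between CAST/EiJ and C57BL/6J, where 49.7% of all genes were. CAST/EiJ was higher in 10, where 24.0% of all genes were, and lower in 2, with a median log2 fold change of 0.76 beside -0.013 for all genes. *Gk* was 5.92 against 1.42 CPM (2.04 ± 0.23 SE, adjusted p = 2.42e-09), *Acot11* 25.7 against 9.97 CPM (1.37 ± 0.19, adjusted p = 1.35e-07) and *Dio2* 4.73 against 2.66 CPM (0.83 ± 0.24, adjusted p = 0.00422). Also higher were *Slc27a2*, a fatty acid transporter, and *S100b*, *Mpzl2*, *Slc36a2*, *Clstn3*, *Pank1* and *Kng2*.

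The 2 genes lower in CAST/EiJ were transcription regulators of brown adipocyte identity. *Prdm16* was 2.69 against 5.1 CPM (-0.92 ± 0.15 SE, adjusted p = 4.48e-06). *Ebf2* was 4.7 against 6.34 CPM (-0.46 ± 0.15, adjusted p = 0.01), and missed the threshold, at an adjusted p of 0.0677, without the second CAST/EiJ male library on 10% fat. Of the 18 regulators of *Ucp1*, which include both, 3 were higher and 7 lower. Among all genes 49.7% were called in either direction, so the number of regulators called is near that share. Adipocyte genes as a class were higher in 7 of 12 and lower in 0, where 24.0% of all genes were higher. Their median was 0.78, and those higher included *Fabp4* at 494 against 244 CPM (1.08 ± 0.27, adjusted p = 0.000822) and *Cidec* at 80 against 32.2 CPM (1.5 ± 0.40, adjusted p = 0.00188). *Adipoq*, at 68.3 against 45.9 CPM, was not called (adjusted p = 0.092).

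Against NZO/HlLtJ, CAST/EiJ was higher in 13 and lower in 1 of the 19 other brown adipocyte genes, with a median of 1.10, in a comparison that called 50% of all genes. *Acot11* was 25.7 against 5.51 CPM (log2 fold change 2.30 ± 0.20 SE, edgeR adjusted p = 2.84e-12) and *Adrb3* 7.2 against 1.89 CPM (2.23 ± 0.51, adjusted p = 0.00039). NZO/HlLtJ itself was higher than C57BL/6J in 0 and lower in 4 of the 19, with a median of 0.04, in a comparison that called 25.8% of all genes. The 4 were *Prdm16* (-0.94 ± 0.15 SE, adjusted p = 6.31e-06), *Acot11* (-0.93 ± 0.20, adjusted p = 0.00034), *Zic1* (-1.05 ± 0.23, adjusted p = 0.00045) and *Adrb3* (-1.62 ± 0.51, adjusted p = 0.015). *Adrb3* missed the threshold, at an adjusted p of 0.113, without the third C57BL/6J male library on 10% fat. *Lep*, the gene of the white fat hormone leptin, was 55.9 CPM in NZO/HlLtJ against 10 CPM in C57BL/6J (2.43 ± 0.55, adjusted p = 0.000801). The list of genes that lean to white fat went both ways. *Hoxc10* (0.32 ± 0.06, adjusted p = 9.43e-05) and *Sncg* (1.26 ± 0.37, adjusted p = 0.00869) were also higher. *Agt* was lower, at 4.72 against 8.92 CPM (-0.98 ± 0.11, adjusted p = 4.33e-09), and *Retn*, *Slc7a10* and *Nnat* were not called.

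Between diets in NZO/HlLtJ, 0 of the 19 other brown adipocyte genes and 0 of the 12 adipocyte genes were called, where 0.408% of all genes were. Counts of 0 are near that share. The medians were -0.39 and -0.40 beside -0.017 for all genes. *Adrb3* was 1.89 CPM on 10% fat and 0.403 CPM on 44% fat (log2 fold change -2.29 ± 0.58 SE, edgeR adjusted p = 0.0631, DESeq2 adjusted p = 0.00311). *Fabp3*, the fatty acid binding protein of muscle and of brown fat, rose from 237 to 407 CPM (0.77 ± 0.17, edgeR adjusted p = 0.026), a call lost in 8 of 16 fits that each left out 1 library, with an adjusted p of up to 0.104. Lymphocyte markers summed to between 0.304 and 221 CPM on 10% fat and 0.334 and 1.42 CPM on 44% fat, and the highest *Cd79a*, 34.5 CPM, lay in the fourth female library on 10% fat, where *Ucp1* was 4.03 CPM.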

How the data were processed

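The authors deposited expected counts (estimated counts per gene, not scaled) and log2-scale variance-stabilized values for 47 libraries, with gene positions. The submitters' processing notes name GRCm38 and DESeq2, without versions. Which aligner and quantifier made the counts, and their stranding, is not given in the sources used here. Of the deposited count values, 81.19% were whole to within 1e-06, and every gene was above 0 in at least 24 libraries. Counts were rounded and fitted in R 4.3.3 with edgeR 4.0.16 (limma 3.58.1): filterByExpr over 12 groups, TMM scaling, quasi-likelihood F tests with 12 group terms and the identifier run, 33 residual degrees of freedom, Benjamini-Hochberg over 17159 genes, called at an adjusted p under 0.05. Diet and strain contrasts average the sexes and sex contrasts the diets. The fit was tested on simulated data. Alternatives were DESeq2 1.42.0, RLE scaling, no filter, no identifier run, a prior count of 0.5, the deposited log2 values and each library left out in turn; member levels relative to adipocyte genes were added after seeing the data. Members and lists were chosen with earlier results of these data known. Named genes were the 5 members, the 12 most like them, and from each list the called genes, up to 4 with the smallest p, and family relatives. Positions came from the deposited gene table, promoter sequence from RefSeq (GRCm38.p6). Expected counts at or under 3 per library were treated as not distinguishable from none, which covers counting error only.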

Additional observations from a re-analysis of the deposited data

Results flagged for a closer look

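Of 55 pairs of gene and group of 4 libraries, 6 held 1 library that stood far from the others by Dixon's criterion. Its rate of about 1 in 20 by chance is for continuous values. In all but the *Otop1* pair the other libraries were tied at 0, where any count above 0 is flagged. The 6 can therefore not be set against that rate. All 6 lay in groups of low level. In C57BL/6J females on 44% fat, the second library had 0.571 CPM of *Ucp1* where the others had 0, and 0.74 CPM of *Otop1* where the others had 0.298 to 0.315. The other 4 rest on 1 to 4 counts: *Ucp1* at 0.0512 CPM and *Elovl3* at 0.0256 CPM in the third C57BL/6J male library on 44% fat, *Elovl3* at 0.0471 CPM in the third C57BL/6J male library on 10% fat, and *Elovl3* at 0.105 CPM in the second NZO/HlLtJ male library on 44% fat.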

How the results depend on the processing

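No paired analysis was possible because the labels carry no replicate numbers shared between groups. The count of genes called between diets was 45 by DESeq2 against 23 by edgeR in CAST/EiJ, 228 against 70 in NZO/HlLtJ, and in C57BL/6J 9 by DESeq2 and 1 with RLE scaling against 0. The test of sex by diet in NZO/HlLtJ gave 22 by DESeq2 against 0. Leaving out 1 library at a time, the diet counts ran from 11 (without the second CAST/EiJ male library on 10% fat) to 36 (without the first CAST/EiJ female library on 10% fat), in NZO/HlLtJ from 19 to 195 (without the fourth and the third male library on 44% fat), and in C57BL/6J from 0 to 1. Likewise the sex counts in CAST/EiJ ran from 448 (without the second male library on 10% fat) to 788, the sex by diet counts from 0 to 1 in CAST/EiJ and 0 to 7 in NZO/HlLtJ, and the members called between the sexes in NZO/HlLtJ from 0 to 1.

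The deposited log2 values compress low levels. On them the *Elovl3* diet difference in CAST/EiJ was -1.03, the differences of CAST/EiJ from C57BL/6J were 3.88 (*Ucp1*), 2.30 (*Cidea*), 1.60 (*Elovl3*), 1.44 (*Otop1*) and 1.37 (*Kcnk3*), that of NZO/HlLtJ from C57BL/6J was 0.67 for *Otop1*, and that of CAST/EiJ from NZO/HlLtJ was 1.40 for *Elovl3*. With a prior count of 0.5 *Elovl3* differed by 7.08 between CAST/EiJ and C57BL/6J, and relative to adipocyte genes *Elovl3*, *Otop1* and *Kcnk3* differed by 4.86, 2.99 and 2.09. Of the 12 most similar genes, 4 were shared with Spearman's rho, 2 with CAST/EiJ alone and 5 with NZO/HlLtJ alone.

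Directions that changed were all of values not called. For females against males in CAST/EiJ, *Ucp1* was -0.15 by DESeq2 and -0.02 without the identifier run, and ran from -0.38 to 0.41 over single libraries left out; *Cidea* ran from -0.50 to 0.06. In NZO/HlLtJ *Ucp1* ran from -0.70 to 3.35, *Cidea* from -0.46 to 1.72, *Elovl3* from -0.02 to 3.22 and *Kcnk3* from -0.31 to 0.44, and in C57BL/6J *Kcnk3* from -0.02 to 0.36. Between diets in CAST/EiJ *Fabp4* ran from -0.09 to 0.11, *Ucp2* from -0.04 to 0.14 and *Ucp3* from -0.03 to 0.15, and in NZO/HlLtJ *Gk* from -0.41 to 0.04. Against C57BL/6J, *Gk* in NZO/HlLtJ ran from -0.11 to 0.32 and *Ucp3* in CAST/EiJ from -0.22 to 0.02. Where a cause is not part of the setting, the cause was not tested. *Ucp1* and *Elovl3* in C57BL/6J rest on too few counts to show a difference between diets or between the sexes.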
